A study of Mus musculus with 27 samples.

Results

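NRF2 pathway genes in the colonic epithelium of mice given the dioxin TCDD were examined one by one over 9 dose groups. The 9 genes were Nfe2l2, which encodes NRF2, its repressor Keap1, and the NRF2 targets Gclc, Gclm, Txnrd1, Srxn1, G6pdx, Nqo1 and Hmox1. They were found by matching the Ensembl identifiers of the count tables to these symbols. All 9 were present once among the 46078 genes of the tables, and all 9 had enough reads to enter the tests, as did 16496 genes in all. At 30 μg/kg, Nqo1 was 1.95-fold and Nfe2l2 1.56-fold higher than in vehicle-treated mice. The other 7 members did not pass the test at that dose, and 6 of them differed from vehicle by 1.12-fold or less in the fit reported.

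Total RNA was sequenced from 27 male C57BL/6 mice, 3 in each of 9 groups, whose colonic epithelium had been scraped off. One group received sesame oil vehicle and each of the other 8 received TCDD at 1 dose level, from 0.01 μg/kg (then 0.03 and 0.1) through 0.3, 1 and 3 up to 10 and 30 μg/kg. All mice were given 7 gavages, 1 every 4 days over 28 days, starting at 28 days of age and ending at 56 days. Scrapings are bulk samples, so a change in the share of a cell type and a change of RNA per cell cannot be told apart. The reads counted on genes ranged from 9305441 to 14371035 in a mouse (median 11651026). Levels are given in CPM, counts scaled to a common library size (with TMM factors), each group as the mean ± SD of 3 mice.

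The barcodes that index the libraries were used 2 times over. The 15 mice that received vehicle or up to 0.3 μg/kg, and 1 of those given 1 μg/kg, had the first use, and the other 11 mice had the second. Vehicle and 30 μg/kg therefore differed in barcode set as well as in dose, and no vehicle-treated mouse had the second use. Genes of the circadian clock also differed between the groups. A clock score, the mean log2 CPM of 9 clock genes such as Dbp and Per2 minus that of 5 such as Arntl, was -2.61 ± 0.13 in vehicle-treated mice and 1.97 ± 0.37 at 30 μg/kg. The group means were between -2.16 and -0.80 from 0.01 to 0.3 μg/kg and between 1.54 and 1.97 from 1 μg/kg up, and 1 mouse at 0.01 μg/kg stood apart from its group at 1.45, beside -2.82 and -2.10. The colonocyte markers Car1, Slc26a3, Krt20, Aqp8 and Ceacam20 summed to between 6154 and 6755 CPM in vehicle-treated mice and between 5990 and 6897 CPM at 30 μg/kg, so markers of the labelled tissue were present in both groups, and none of the 5 was called.

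NRF2 is a transcription factor that KEAP1 holds in the cytoplasm and marks for degradation. Oxidants and electrophiles modify KEAP1, and NRF2 then enters the nucleus, pairs with a small MAF protein and binds antioxidant response elements beside genes for glutathione synthesis, the thioredoxin system, NADPH supply and quinone reduction. TCDD binds the aryl hydrocarbon receptor (AhR), which acts at dioxin response elements. Nqo1 is known as a target of both factors, and Nfe2l2 itself has been described as an AhR target.

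A gene was called at an adjusted p under 0.05 and a change of at least 1.5-fold in edgeR's quasi-likelihood test, with the Benjamini-Hochberg adjustment over all 16496 genes. No gene of any kind was called at 0.01, 0.03, 0.1 or 0.3 μg/kg, a background of 0 percent, and among the members 0 had an unadjusted p under 0.05 at those doses. The next doses, 1, 3 and 10 μg/kg, gave 0 of 9 members called each, against 0.200, 0.697 and 1.78 percent of all genes in that order. The members with an unadjusted p under 0.05 numbered 2, 3 and 3 at those doses, and DESeq2 called 0, 0 and 1. At 30 μg/kg, 2 of 9 members were called, both higher, against 6.16 percent of all genes. With a term for the barcode set or for the clock score, or without the first vehicle-treated mouse, 0 were called. The 3 mice at 30 μg/kg did not overlap with the 3 vehicle-treated mice for 3 of 9 members, Nfe2l2, Nqo1 and Hmox1. The same held for 29.7 percent of all genes, so the members' share was close to the background. No such share of all genes was computed for the other sets of mice compared below. The median log2 fold change of the members was 0.12 at 30 μg/kg, beside -0.00224 for all genes. The comparisons at different doses share the same 3 vehicle-treated mice.

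**Figure D1:**
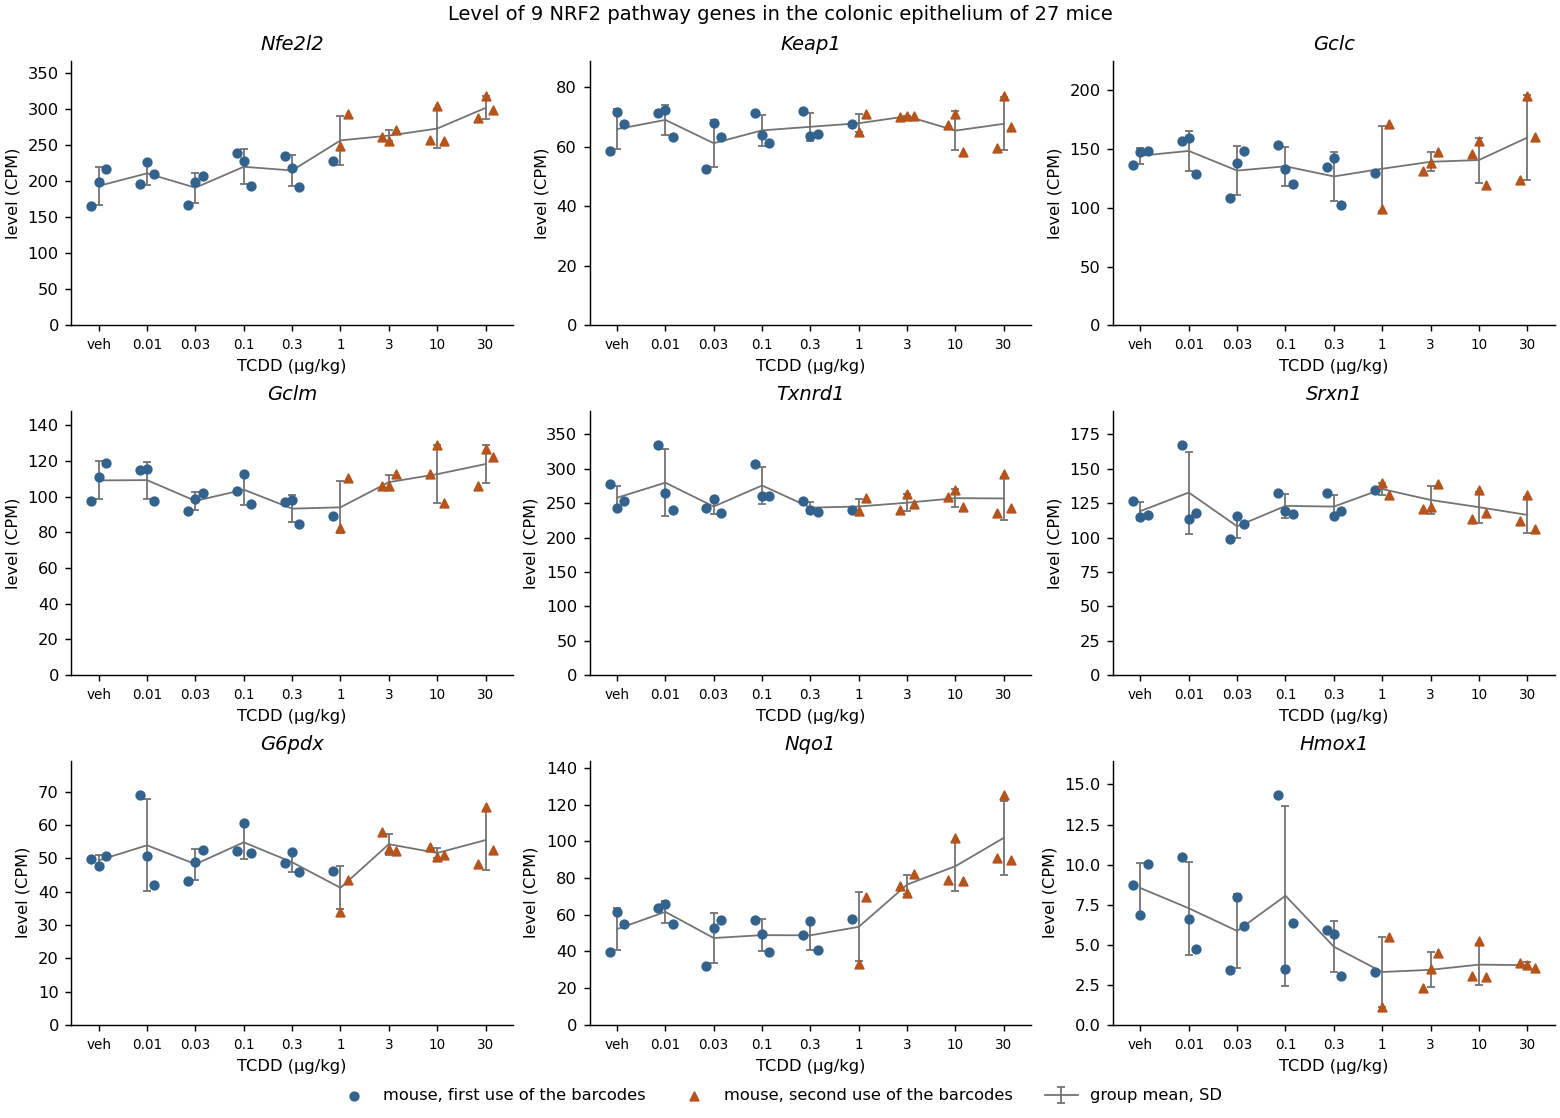
Level (CPM, linear axis from 0) of each of the 9 members in each of the 27 mice by TCDD dose, with circles for the first and triangles for the second use of the barcodes and grey lines for the group mean and SD. Nfe2l2 and Nqo1 were highest at 3 to 30 μg/kg, Hmox1 was lowest from 1 μg/kg up, and only Nfe2l2 and Nqo1 were called, both at 30 μg/kg.

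Nfe2l2 lies on the minus strand at chr2:75675513-75704641 (GRCm38). Its level was 165, 199 and 217 CPM in the 3 vehicle-treated mice and 288, 319 and 299 CPM in the 3 mice at 30 μg/kg. Mice at 3 μg/kg had 262, 257 and 272 CPM, and those at 10 μg/kg had 258, 305 and 257 CPM. Every mouse at these 3 doses was above every vehicle-treated mouse. All 9 of them, at 257 CPM or more, were above all 15 mice at vehicle to 0.3 μg/kg, which reached 239 CPM. These 9 and 15 mice also differed in the use of the barcodes. The group means went from 194 ± 26.1 CPM at vehicle to 302 ± 16.0 CPM at 30 μg/kg. The highest dose differed from vehicle by a log2 fold change of 0.64 ± 0.11 (SE, edgeR adjusted p = 0.000941). The differences were 0.50 (edgeR adjusted p = 0.0165) at 10 μg/kg and 0.44 (edgeR adjusted p = 0.0492) at 3 μg/kg, both under 1.5-fold. At 1 μg/kg the mice had 228, 249 and 294 CPM, each above the vehicle-treated mice, with a log2 fold change of 0.41 (edgeR adjusted p = 0.167). In the order of the group means, no group had all of its mice above all mice of the group just below it. A term for the barcode set left a log2 fold change of 0.39 at 30 μg/kg (edgeR adjusted p = 0.270), and one for the clock score left 0.61 (edgeR adjusted p = 0.121). Without the first vehicle-treated mouse, whose 165 CPM was the lowest of all 27, the value was 0.55, under the 1.5-fold limit, with an edgeR adjusted p of 0.00898.

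Keap1, on the minus strand at chr9:21229730-21239361, encodes the adaptor that hands NRF2 to the CUL3 ubiquitin ligase. Its level was 58.5, 71.7 and 67.7 CPM in vehicle-treated mice and 59.5, 77.3 and 66.5 CPM at 30 μg/kg. The groups overlapped throughout, and over all 27 mice the level stayed between 52.6 and 77.3 CPM. The highest dose differed from vehicle by a log2 fold change of 0.0381, with an interval of 2 standard errors either way from -0.17 to 0.25 (edgeR adjusted p = 0.859). Reads on Nfe2l2 per read on Keap1, a measure that needs no library scaling, numbered 2.83, 2.78 and 3.20 in the vehicle-treated mice and 4.84, 4.13 and 4.50 at 30 μg/kg. The mean was 2.93 ± 0.23 with vehicle and 3.75 ± 0.10, 4.18 ± 0.30 and 4.49 ± 0.35 with 3, 10 and 30 μg/kg. All 3 mice at 30 μg/kg were above all 3 vehicle-treated mice, for which an exact two-sided permutation test gives p = 0.1, the smallest that 3 against 3 mice allow. This ratio was chosen after the values of the members had been seen.

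The 250 bases before the start of transcription were read for members with an entry in RefSeq's promoter set (GRCm38.p6), which gave 9 windows for 7 of the 9 members, 3 of them for Txnrd1. Gclc and Hmox1 had no entry. The windows were searched on both strands for TGACNNNGC, the core of the antioxidant response element (ARE), and GCGTG, the core of the dioxin response element, which do not overlap in any window shown. The ARE core was present in 4 of the 9 windows, of Nfe2l2, Gclm, Txnrd1 and G6pdx, and in 10.16 percent of all 32851 windows of the set. GCGTG was present in 7 of the 9 windows, of Srxn1, Gclm, Keap1, Txnrd1 (in all 3) and G6pdx, and in 28.16 percent of all windows. The windows of both called members and of Gclm, which was not called and held both motifs, are shown 5′ to 3′ on the strand of the gene, with each match in capitals. Nfe2l2 is at chr2:75704664-75704913 (minus strand), Nqo1 at chr8:107403206-107403455 (minus strand) and Gclm at chr3:122245307-122245556 (plus strand).
Nfe2l2: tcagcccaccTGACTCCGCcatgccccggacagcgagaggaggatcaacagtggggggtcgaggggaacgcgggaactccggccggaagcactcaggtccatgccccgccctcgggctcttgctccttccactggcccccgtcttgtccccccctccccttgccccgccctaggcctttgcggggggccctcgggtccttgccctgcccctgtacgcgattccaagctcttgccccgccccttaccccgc
Nqo1: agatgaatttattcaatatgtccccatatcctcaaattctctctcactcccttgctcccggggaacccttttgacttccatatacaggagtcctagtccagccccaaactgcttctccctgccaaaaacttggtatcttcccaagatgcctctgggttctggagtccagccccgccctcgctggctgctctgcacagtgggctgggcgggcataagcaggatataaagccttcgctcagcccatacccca
Gclm: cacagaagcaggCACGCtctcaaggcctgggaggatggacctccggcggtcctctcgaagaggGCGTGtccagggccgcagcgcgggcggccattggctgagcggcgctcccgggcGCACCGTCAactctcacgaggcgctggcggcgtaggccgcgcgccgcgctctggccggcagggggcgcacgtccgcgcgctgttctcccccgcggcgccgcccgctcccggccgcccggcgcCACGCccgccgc
In the Nfe2l2 window the match TGACTCCGC began 240 bases before the start. The Nqo1 window held neither motif. The Gclm window held 1 ARE core, 134 bases before the start on the opposite strand, and 3 copies of GCGTG on either strand, at 238, 187 and 12 bases before it. The windows shown were picked from the 9, and that of Gclm held the most matches of any. The windows of Srxn1 and Keap1, also not called, held 1 match each, and a link between matches and calls was not tested. A match is a run of letters and no evidence of binding, and these windows do not reach the more distant elements.

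Gclc and Gclm encode the catalytic and the modifier subunit of glutamate-cysteine ligase, which makes the first bond of glutathione. Gclc, at chr9:77754535-77794485 on the plus strand, was at 137, 148 and 149 CPM in vehicle-treated mice and 123, 196 and 161 CPM at 30 μg/kg. The 30 μg/kg mice lay on both sides of the vehicle range. Its log2 fold change was 0.15 (interval -0.20 to 0.49, edgeR adjusted p = 0.639). Gclm, at chr3:122245557-122270732 on the plus strand, was at 97.7, 111 and 119 CPM in vehicle-treated mice and 106, 127 and 122 CPM at 30 μg/kg, with a log2 fold change of 0.12 (interval -0.11 to 0.34, edgeR adjusted p = 0.548). The groups overlapped, and 2 of the 3 mice at 30 μg/kg were above the vehicle range. Gclm was less variable than Gclc, with a coefficient of variation within groups of 9.95 percent against 16.1 percent. A noncoding transcript, Gm17494, overlaps Gclm on the opposite strand with 19 to 47 reads per mouse.

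Txnrd1 encodes cytosolic thioredoxin reductase and Srxn1 encodes sulfiredoxin, which reactivates overoxidized peroxiredoxins. Txnrd1 (plus strand, chr10:82833951-82897712) was at 277, 243 and 253 CPM in vehicle-treated mice and 236, 293 and 243 CPM at 30 μg/kg, and Srxn1 (plus strand, chr2:152105516-152111376) was at 127, 115 and 116 CPM and 112, 131 and 106 CPM. In both genes the groups overlapped, and 1 of the 3 mice at 30 μg/kg was above the vehicle range and 2 were below it. Their log2 fold changes were -0.00556 (interval -0.21 to 0.19) and -0.0342 (interval -0.26 to 0.20), with edgeR adjusted p-values of 0.980 and 0.885. Srxn1 was higher in every mouse at 1 μg/kg than in any vehicle-treated mouse, with a log2 fold change of 0.18 (edgeR adjusted p = 0.637). The highest value of each over the 27 mice, 334 CPM for Txnrd1 and 167 CPM for Srxn1, came from the same mouse at 0.01 μg/kg. That mouse also had the highest G6pdx of all 27, at 69.0 CPM.

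G6pdx (minus strand, chrX:74409483-74429194) encodes glucose-6-phosphate dehydrogenase, which supplies NADPH through the pentose phosphate pathway. It was at 49.8, 47.6 and 50.8 CPM in vehicle-treated mice and 48.3, 65.6 and 52.7 CPM at 30 μg/kg, with a log2 fold change of 0.17 (interval -0.11 to 0.45, edgeR adjusted p = 0.473). The mice at 30 μg/kg lay within and above the vehicle range. Over the 8 alternative ways of processing, the log2 fold change of G6pdx ran from 0.15 to 0.62, and it was called in none. Its lowest level was at 1 μg/kg, with 46.2, 33.9 and 43.5 CPM, all below the vehicle range (log2 fold change -0.26, edgeR adjusted p = 0.568). All mice at 0.1 and at 3 μg/kg were above that range, at log2 fold changes of 0.15 and 0.13 (edgeR adjusted p = 0.900 and 0.677). G6pdx overlaps Ikbkg on the opposite strand, which had 468 to 941 reads per mouse. Whether counting used strand is not given in the sources used here, so reads where the pair overlaps may have been left out as ambiguous.

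Nqo1 (minus strand, chr8:107388225-107403206) encodes NAD(P)H quinone dehydrogenase 1, which reduces quinones to hydroquinones directly, without releasing the reactive semiquinone. Its level was 39.8, 61.7 and 55.2 CPM in vehicle-treated mice and 90.7, 125 and 89.9 CPM at 30 μg/kg. Mice at 3 μg/kg had 75.7, 71.8 and 82.0 CPM, and those at 10 μg/kg had 79.1, 102 and 78.4 CPM. Every mouse at 3, 10 or 30 μg/kg was above all 15 mice at vehicle to 0.3 μg/kg, with 71.8 CPM as the lowest of the former and 65.9 CPM as the highest of the latter. The group means were 52.2 ± 11.3 CPM with vehicle and 76.5 ± 5.14, 86.5 ± 13.3 and 102 ± 20.2 CPM with 3, 10 and 30 μg/kg. The highest dose differed from vehicle by a log2 fold change of 0.97 ± 0.23 (SE, edgeR adjusted p = 0.00929). Neither 10 μg/kg, with 0.73 (edgeR adjusted p = 0.0813), nor 3 μg/kg, with 0.55 (edgeR adjusted p = 0.228), passed. At 10 μg/kg Nqo1 passed with no filter on low counts (edgeR adjusted p = 0.0222), with a term for the score of Hox genes (edgeR adjusted p = 0.0300) and in DESeq2 (adjusted p = 0.0282). An exact two-sided permutation test of the log2 CPM at 30 μg/kg against vehicle gave p = 0.1, the smallest possible, for Nqo1 as for Nfe2l2 and Hmox1.

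At 1 μg/kg the 3 mice were far apart in Nqo1. They had 57.6 CPM with the first use of the barcodes and 32.98 and 69.7 CPM with the second. In the order of the 9 group means, 3 μg/kg was the only group whose mice were all above those of the group just below it, which was 0.01 μg/kg at 61.6 ± 5.82 CPM. The call at 30 μg/kg was lost without the first vehicle-treated mouse (log2 fold change 0.81, edgeR adjusted p = 0.0574) and without the second mouse at 30 μg/kg (0.79, edgeR adjusted p = 0.0539). It was also lost with limma. A term for the barcode set (1.13 ± 0.41, edgeR adjusted p = 0.116) or for the clock score (0.95 ± 0.45, edgeR adjusted p = 0.249) ended the call as well. Both terms widened the error of the difference. In each fit of the groups the barcode term rests on the mice at 1 μg/kg alone, the only group with both uses. It therefore cannot separate the use of the barcodes from dose.

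**Figure D2:**
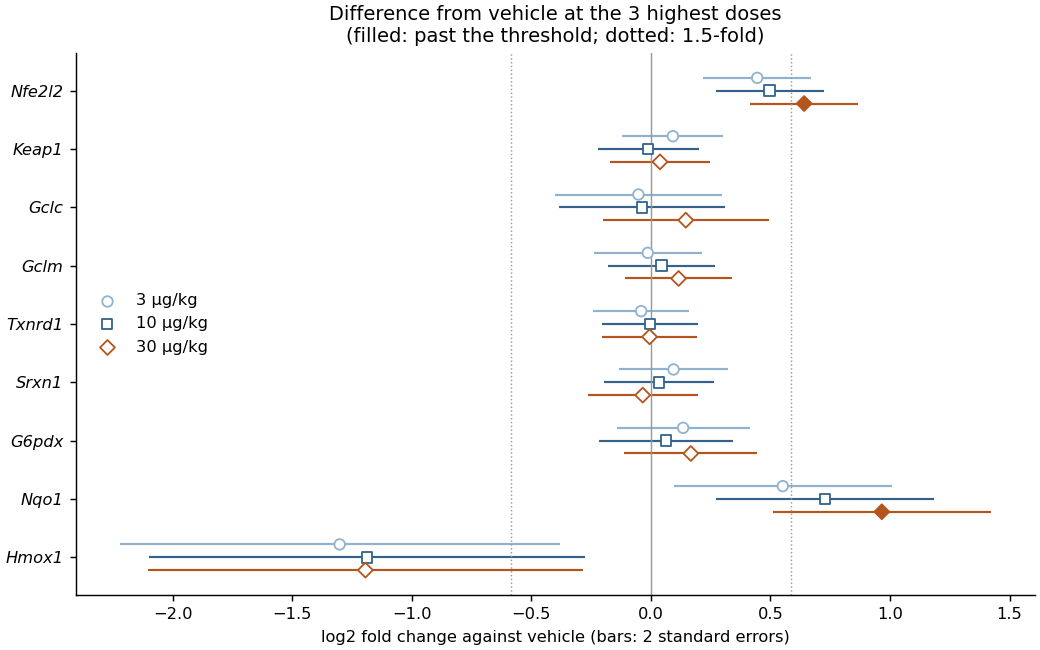
Log2 fold change against vehicle at 3 μg/kg (circles), 10 μg/kg (squares) and 30 μg/kg (diamonds) for the 9 members, with bars of 2 standard errors either way, filled symbols for called genes and dotted lines at 1.5-fold. Nfe2l2 and Nqo1 are to the right of 0 at all 3 doses and filled only at 30 μg/kg, and Hmox1 is to the left with wide bars at all 3.

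Reads on Nqo1 were also set against reads on Gclc and Gclm of the same mouse. Per read on Gclc there were 0.291, 0.417 and 0.371 reads on Nqo1 in the vehicle-treated mice and 0.735, 0.640 and 0.560 at 30 μg/kg, with means of 0.360 ± 0.064 and 0.645 ± 0.088. The means with 3 and 10 μg/kg were 0.549 ± 0.028 and 0.616 ± 0.065, while the 5 groups from vehicle to 0.3 μg/kg had means between 0.354 and 0.416. Per read on Gclm the means were 0.475 ± 0.075 at vehicle and 0.859 ± 0.126 at 30 μg/kg. In both ratios every mouse at 30 μg/kg was above every vehicle-treated mouse, and the exact two-sided permutation p was again the smallest possible, 0.1. The ratio to Gclc at 30 μg/kg was highest in the first mouse, although the second mouse had the highest level of both genes. Both ratios were chosen after the values of the members had been seen.

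**Figure D3:**
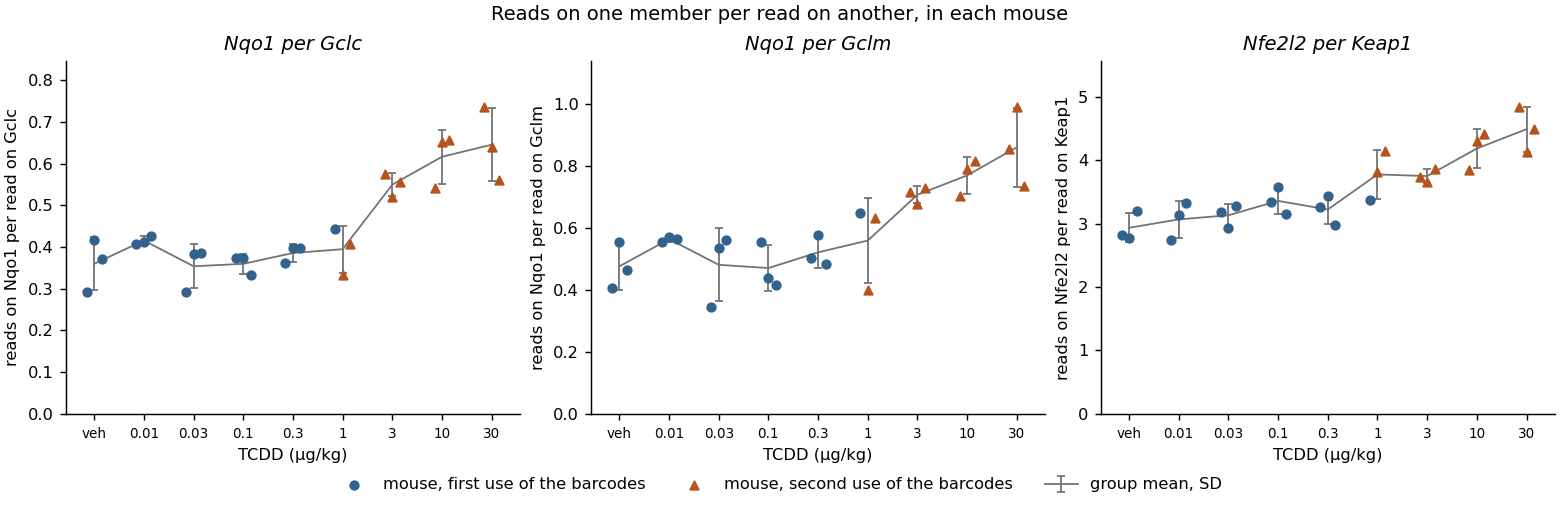
Reads on Nqo1 per read on Gclc (left) or Gclm (middle) and on Nfe2l2 per read on Keap1 (right) in each mouse by dose, with circles for the first and triangles for the second use of the barcodes and grey lines for mean and SD. The means at vehicle and 30 μg/kg are 0.360 and 0.645, 0.475 and 0.859, and 2.93 and 4.49.

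Several members were high in the same mouse. The second mouse at 30 μg/kg was the highest of its group in 8 of the 9 members. The mouse with the highest Nqo1 of its group also had the highest Gclc in 8 of the 9 groups, the highest Gclm, Nfe2l2 and Keap1 in 7 each, the highest Txnrd1, Srxn1 and Hmox1 in 4 each, and the highest G6pdx in 3. These counts are a description, and the levels of a mouse share its library and its scaling.

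Hmox1 (plus strand, chr8:75093621-75100589) encodes heme oxygenase 1, which breaks heme down to biliverdin, iron and carbon monoxide. It had the fewest reads of the members, 10 to 140 per mouse. Its level was 8.76, 6.85 and 10.0 CPM in vehicle-treated mice and 3.88, 3.76 and 3.53 CPM at 30 μg/kg. The 3 mice at 1 μg/kg had 3.33, 1.11 and 5.46 CPM, and the 6 mice at 3 or 10 μg/kg had between 2.30 and 5.22 CPM. Every mouse at these 4 doses was below every vehicle-treated mouse. So was every mouse at 0.3 μg/kg, with 5.95, 5.65 and 3.03 CPM and the same use of the barcodes as vehicle (log2 fold change -0.81, edgeR adjusted p = 0.945). The 9 mice at 0.01 to 0.1 μg/kg overlapped with vehicle, at 3.42 to 14.3 CPM. The highest dose differed from vehicle by a log2 fold change of -1.19 ± 0.45 (SE, edgeR adjusted p = 0.0909). The differences at 1, 3 and 10 μg/kg were -1.35, -1.30 and -1.19, with edgeR adjusted p-values of 0.286, 0.159 and 0.159, so Hmox1 passed at none of these doses. In a fit of only the 2 groups it passed at 3 μg/kg (edgeR adjusted p = 0.0280) and 10 μg/kg (edgeR adjusted p = 0.0470) as well. With no filter on low counts the edgeR adjusted p at 30 μg/kg was 0.0450, and in a fit of only the 2 groups 0.0136, both of which pass. DESeq2 and limma did not call it. A term for the barcode set left -1.20 ± 0.89 (edgeR adjusted p = 0.479). With a term for the clock score the difference was -0.45 ± 0.86 at 30 μg/kg (edgeR adjusted p = 0.822), and it was -0.67, -0.57 and -0.46 for 1, 3 and 10 μg/kg.

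Hmox1 is also abundant in macrophages, which take up red cells. Of 8 macrophage markers (Adgre1, Csf1r, Cd68, C1qa, C1qb, C1qc, Mrc1 and Cd163), 1, C1qc, was called at 30 μg/kg, at a log2 fold change of 1.22 (edgeR adjusted p = 0.0250), with overlapping groups, and 8 of 8 were estimated higher. Their summed level was 13.4 to 18.5 CPM in vehicle-treated mice and 13.9 to 28.5 CPM at 30 μg/kg, and the part of macrophages in the level of Hmox1 was not tested. Hmox2, the second heme oxygenase, was at 17.8 ± 0.60 CPM in vehicle-treated mice and 22.0 ± 1.13 CPM at 30 μg/kg, with a log2 fold change of 0.30 (edgeR adjusted p = 0.0957).

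The slope of the log2 level over the dose steps, counted from 0 at vehicle to 8 at 30 μg/kg, used all 27 mice. It was called, at an edgeR adjusted p under 0.05, for 3 of 9 members, against 23.4 percent of all genes. Nqo1 rose by 0.114 ± 0.024 per step (SE, edgeR adjusted p = 0.000878), Nfe2l2 rose by 0.0802 ± 0.010 (edgeR adjusted p = 3.55e-06) and Hmox1 fell by 0.173 ± 0.040 (edgeR adjusted p = 0.00242). The other 6 members had slopes between -0.00840 and 0.0126, with edgeR adjusted p-values between 0.456 and 0.939. Within the 15 mice at vehicle to 0.3 μg/kg, which share the first use of the barcodes, 0 of 9 members were called, against 0 percent of all genes, and 1 member, Gclm, had an unadjusted p under 0.05, with a slope of -0.0512 per step. Within the 11 mice of the second use, at 1 to 30 μg/kg, 1 of 9 members was called, against 3.06 percent of all genes. An unadjusted p under 0.05 was found for 4, Nqo1, G6pdx (slope 0.128), Gclm (0.0917) and Srxn1 (-0.0682), with edgeR adjusted p-values of 0.181, 0.225 and 0.254 for the last 3. The member called was Nqo1, at 0.298 ± 0.076 per step (edgeR adjusted p = 0.0489), whereas Nfe2l2 had 0.060 ± 0.030 (edgeR adjusted p = 0.299) and Hmox1 0.061 ± 0.14 (edgeR adjusted p = 0.850). The split into the 11 mice was chosen after the data had been seen. With a term for the barcode set or for the clock score, 0 of the 3 slopes were called, and 11 and 39 slopes were called among all genes.

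The mice at 3 and 30 μg/kg all had the second use of the barcodes, and their clock scores, 1.87 ± 0.16 and 1.97 ± 0.37, overlapped. Between these doses, 0 of 9 members were called by edgeR, against 0.461 percent of all genes, 0 had an unadjusted p under 0.05, and DESeq2 and limma called 0 as well. Nqo1 was higher at 30 μg/kg by a log2 fold change of 0.41 (interval -0.0349 to 0.86, edgeR adjusted p = 0.514) and Nfe2l2 by 0.20 (interval -0.0289 to 0.42, edgeR adjusted p = 0.545). For both genes every mouse at 30 μg/kg was above every mouse at 3 μg/kg, and the share of all genes apart in this way was not computed. Hmox1 did not separate the groups, at 0.11 (interval -0.85 to 1.07).

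**Figure D4:**
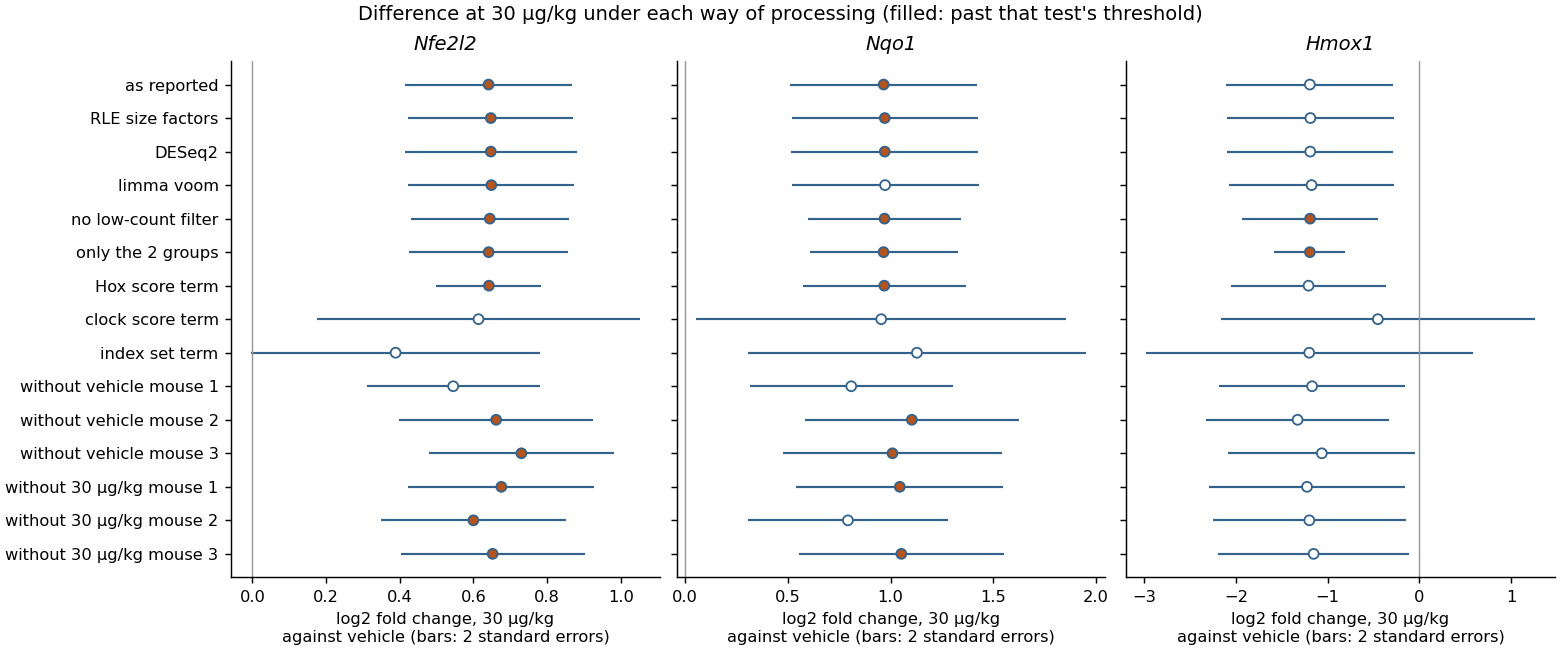
Log2 fold change at 30 μg/kg against vehicle of Nfe2l2, Nqo1 and Hmox1 under each way of processing, with bars of 2 standard errors either way and filled circles where that test's threshold was passed. Nqo1 stays between 0.79 and 1.13 and Nfe2l2 between 0.39 and 0.73, and open circles mark the 5 settings for Nqo1 and the 3 for Nfe2l2 at which the call was lost.

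Scaled to the length of their exons and to library size (RPKM), the members kept a wide range of levels. In vehicle-treated mice the RPKM was 51.03 ± 6.87 for Nfe2l2, 42.3 ± 2.33 for Srxn1, 38.3 ± 1.80 for Gclc, 36.4 ± 2.49 for Txnrd1 and 33.6 ± 7.25 for Nqo1. Below these came Gclm at 17.4 ± 1.70, G6pdx at 16.0 ± 0.53, Keap1 at 14.1 ± 1.44 and Hmox1 at 4.88 ± 0.91. The ranges of the 3 mice overlapped for the neighbours Nfe2l2 and Srxn1, Gclc and Txnrd1, Txnrd1 and Nqo1, and Gclm and G6pdx, and did not overlap for the other neighbours. At 30 μg/kg, Nfe2l2 was at 79.6 ± 4.21 and Nqo1 at 65.6 ± 12.98 on this scale, above the other 7 means. Divided by the longest transcript in place of all exons, Txnrd1 was at 71.2 and Nfe2l2 at 78.3 in vehicle-treated mice, so the order rests on the choice of length.

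Of 25 other NRF2 target genes, 25 were tested and 1 was called at 30 μg/kg, against the background of 6.16 percent given above. This was Gpx2, the glutathione peroxidase of the gut epithelium, which fell. Its level was 71.1, 61.6 and 96.5 CPM in vehicle-treated mice and 53.3, 39.6 and 39.3 CPM at 30 μg/kg, with the groups apart (log2 fold change -0.79, edgeR adjusted p = 0.0129). No gene of the list was called with limma, with a term for the barcode set or the clock score, or without vehicle mouse 3, 30 μg/kg mouse 2 or 30 μg/kg mouse 3, so the call of Gpx2 was lost in these fits. The list had 12 genes estimated higher and 13 lower, with a median log2 fold change of -0.0551, and 9 had an unadjusted p under 0.05. Abcc4, an efflux transporter, at 0.43 (edgeR adjusted p = 0.0410), and Blvrb, a biliverdin reductase, at -0.46 (edgeR adjusted p = 0.0247), passed the adjusted p but not 1.5-fold, and Me1, malic enzyme, which supplies NADPH, was at -0.90 with an edgeR adjusted p of 0.0809. The slope over dose was called for 8 of the 25, a share close to the 23.4 percent of all genes. It rose for 2, the thioredoxin gene Txn1 and Osgin1, and fell for 6, Gpx2, Me1, Blvrb, Ephx1, Abcc1 and Prdx1. The genes of this list other than Gpx2 are named after their values were seen.

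Of 11 regulators and partners of NRF2 (Nfe2l1, Nfe2l3, Bach1, Bach2, Mafg, Maff, Mafk, Cul3, Rbx1, Btrc and Gsk3b), edgeR called 0 at 30 μg/kg, as did DESeq2 and limma, while a term for the barcode set gave 1, and 2 had an unadjusted p under 0.05. The median log2 fold change was -0.0864. Of 18 other antioxidant enzymes, 2 were called, both higher, against the same 6.16 percent of all genes, and a term for the clock score left 0. Of the 18, 13 were estimated higher, with a median log2 fold change of 0.16. Sod3, the secreted superoxide dismutase, was at 1.08, 2.11 and 1.47 CPM in vehicle-treated mice and 7.12, 8.86 and 7.41 CPM at 30 μg/kg (log2 fold change 2.32, edgeR adjusted p = 0.000693). Gpx3, the secreted glutathione peroxidase, was at 2.07, 2.74 and 5.89 CPM and 10.2, 13.5 and 21.6 CPM (2.07, edgeR adjusted p = 0.00127). In both genes the groups were apart. The intracellular enzymes Sod1, Sod2, Cat, Gpx1, Gpx4 and Prdx2 to Prdx6 were not called at 30 μg/kg. The slope over dose was called for 7 of the 18, all rising, against 23.4 percent of all genes. They were Sod3, Gpx3, Glrx, Hmox2, Prdx3, Prdx2 and Txn2, and the last 5 are named after their values were seen. Among the regulators the slope fell for 2 of 11, Nfe2l1 and Cul3, at -0.0202 and -0.0325 per step (edgeR adjusted p = 0.0144 and 0.0189).

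Markers of cells other than colonocytes moved at the same dose. Of 5 smooth muscle markers (Acta2, Myh11, Des, Tagln and Actg2), 5 were estimated higher and 0 called by edgeR, 5 with an unadjusted p under 0.05, and their summed level was 44.5 to 81.6 CPM in vehicle-treated mice and 90.7 to 605 CPM at 30 μg/kg. The second mouse at 30 μg/kg, highest in Nqo1, had the lowest of these 3 sums. Of 4 adipocyte markers (Adipoq, Plin1, Cidec and Lep), 1, Cidec, was called higher, with sums of 5.90 to 17.0 CPM and 14.7 to 85.4 CPM. Of 3 endothelial markers, Cdh5 (log2 fold change 2.34, edgeR adjusted p = 0.000589) and Kdr (1.26, edgeR adjusted p = 0.0319) were called higher and Pecam1 was not, with sums of 14.9 to 18.2 CPM and 17.1 to 34.3 CPM. Of 4 fibroblast markers (Col1a1, Col1a2, Dcn and Lum), Dcn was called higher (1.51, edgeR adjusted p = 0.0398), with sums of 44.8 to 57.03 CPM and 40.7 to 96.4 CPM. The 4 tuft cell markers Dclk1, Trpm5, Pou2f3 and Avil were all called lower, from 67.3 to 79.2 CPM in sum to 20.2 to 30.9 CPM. None of the 5 goblet, 4 enteroendocrine or 5 lymphocyte markers was called by edgeR, with 1, 0 and 1 at an unadjusted p under 0.05. The part of these cells in the levels of Sod3, Gpx3, Gpx2 or the members was not tested.

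The AhR gene battery was read in the same mice for comparison. The list held Cyp1a1, Cyp1a2, Cyp1b1, Ahrr, Tiparp, Aldh3a1, Ugt1a6a, Ugt1a6b and Gsta1, and left out Nqo1, which was counted with the members. Of its 9 genes 7 were tested, and 1, 3, 3 and 6 of them were called at 1, 3, 10 and 30 μg/kg. The members called at these doses were 0, 0, 0 and 2 of 9, and the shares of all genes were 0.200, 0.697, 1.78 and 6.16 percent. The 6 at 30 μg/kg became 4 with limma or a term for the barcode set, 3 with a term for the clock score, and 4 to 6 without 1 mouse, the 4 being without vehicle mouse 1 or 30 μg/kg mouse 2. Cyp1a1, the cytochrome that marks AhR activation, had 0 or 1 read in each vehicle-treated mouse and 23969 to 29287 at 30 μg/kg, at least 7328-fold higher with vehicle set at a floor of 3 reads per mouse, which covers counting error only. Its level was 5.69 ± 1.73, 83.1 ± 49.3 and 1103 ± 226 CPM with 1, 3 and 10 μg/kg. Ahrr, the AhR repressor, was at 1.77 ± 0.35 CPM and 132 ± 19.95 CPM (log2 fold change 6.21, edgeR adjusted p = 4.79e-15), and Tiparp, an ADP-ribosyltransferase induced by AhR, at 27.3 ± 4.90 CPM and 56.1 ± 6.89 CPM (1.04, edgeR adjusted p = 0.000184). Tiparp and Nqo1 thus had log2 fold changes of 1.04 and 0.97 at 30 μg/kg. With 10 μg/kg Tiparp stood lower, 0.48 beside 0.73 for Nqo1. The gap was wider with 3 μg/kg, where Tiparp had -0.15 but Nqo1 had 0.55. A likeness of these genes over dose was not tested. The conjugating enzymes Gsta1 at 1.28 (edgeR adjusted p = 0.00748) and Ugt1a6b at 0.71 (edgeR adjusted p = 0.0265) were called at 30 μg/kg as well. Both belong to families of near-identical copies, so reads shared by copies may have been left out. Cyp1b1 had 1 or 2 reads per vehicle-treated mouse and was at least 841-fold higher by the same floor. Between 3 and 30 μg/kg, where 0 of 9 members were called, 4 of the 7 tested genes of the battery were, against 0.461 percent of all genes.

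**Figure D5:**
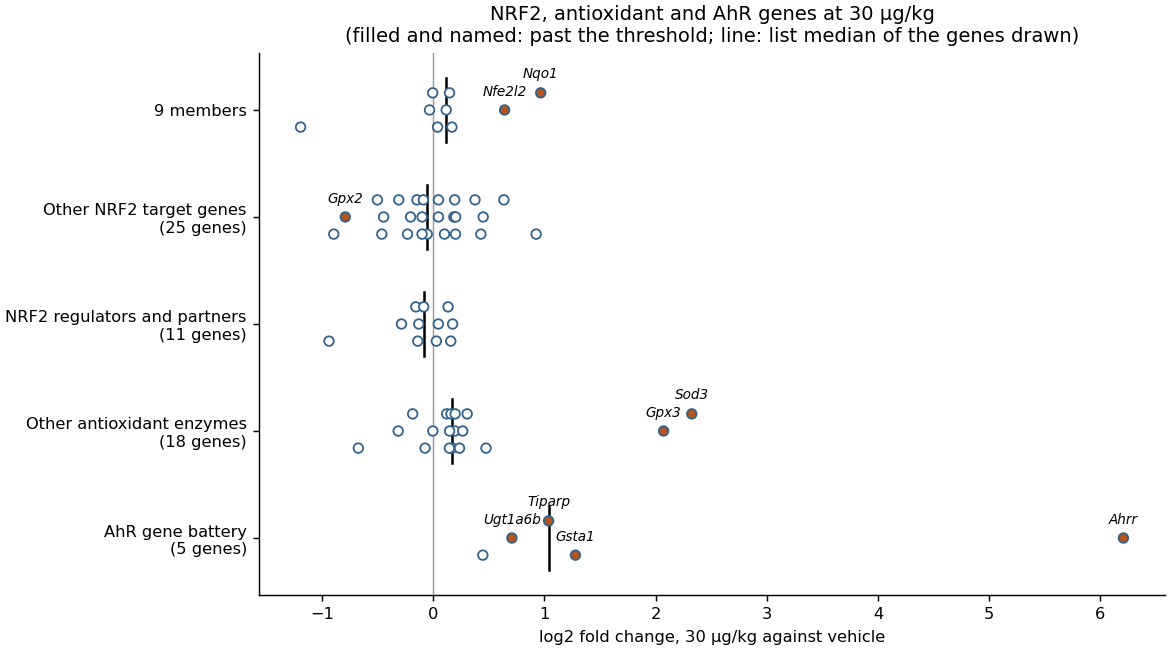
Log2 fold change at 30 μg/kg against vehicle of each tested gene in the 9 members and in 4 lists, with filled and named circles for called genes and a vertical line at the median of the genes drawn. Cyp1a1 and Cyp1b1, at or under the floor in vehicle-treated mice, are left out. The members hold 2 called genes, the other NRF2 targets 1 and lower, and the regulators none.

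The 5 genes whose log2 CPM followed that of Nqo1 most closely over the 27 mice, among tested genes with a mean of at least 1 CPM, were Cisd1 (Pearson r = 0.93), Ugt1a7c (0.93), Slc2a6 (0.93), Entpd5 (0.90) and Sulf2 (0.90). Cisd1 encodes an iron-sulfur protein of the outer mitochondrial membrane, Ugt1a7c a UDP-glucuronosyltransferase and Slc2a6 a sugar transporter. Their log2 fold changes at 30 μg/kg were 0.49, 0.81, 2.54, 0.52 and 0.72 in the order given, a direction that the choice by likeness to Nqo1 favours, so no test is given. The Ugt1a genes share their last exons, so reads on those exons may have been left out as ambiguous. The 27 points share the dose groups and the use of the barcodes, and no p is given.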

How the data were processed

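RNA of colonic epithelium scrapings from 27 mice was sequenced from NuGen Ovation Mouse libraries. Per the submitters' processing notes the authors used FastQC 0.11.3, Trimmomatic 0.33, TopHat2 2.1.0, SAMtools 1.2.0 and HTSeq 0.6.1 on GRCm38, and deposited whole-number read counts for each gene, not normalized. The annotation release and the strand setting are not given in the sources used here. Rows of unassigned reads were left out of the library sizes (29.1 to 33.3 percent on no counted feature, 30.7 to 37.1 percent not unique and 0.392 to 0.607 percent ambiguous). Identifiers were matched to symbols for 45143 of 46078 genes, and locations come from GENCODE for GRCm38.

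All 9 groups entered 1 edgeR 4.0.16 fit in R 4.3.3 (filterByExpr with a minimum count of 10, TMM, quasi-likelihood test). The barcode of each library was read from the name of its deposited file. Its first or second use was taken from the order of the samples, so the barcode sets are inferred and no label states them. Mice were numbered 1 to 3 in each group, in accession order. No label says more of the 3 samples of a group than that they are separate samples, so p-values measure the spread between them. All 27 pairs of mice within a group differed by more than sampling noise (the lowest χ2 was 5.84 times its degrees of freedom). The fits were tested on simulated counts with known changes. Alternatives were RLE factors, DESeq2 1.42.0, limma 3.58.1 with a posterior of at least 0.8, no filter, a fit of the compared groups alone, leaving out mice singly, terms for barcode set, clock score and a score of 9 Hox genes, and the adjusted p alone.

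The members, lists and tests were chosen with earlier results of these data known. The genes named were the members, the genes of each list called at 30 μg/kg (at most 8 of each, in order of adjusted p), and the 5 genes most like Nqo1. Other list genes not called at 30 μg/kg were named after their values were seen.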

Additional observations from a re-analysis of the deposited data

How the results depend on the processing

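No paired analysis was possible because the mice of different groups share no number in the labels. The direction of the log2 fold change at 30 μg/kg stayed the same for Nqo1, Nfe2l2 and Hmox1 in all 8 alternatives and all 6 fits without 1 mouse. It crossed the threshold for Nqo1 with limma (0.97, posterior under 0.8), the barcode term (1.13) and the clock score (0.95), for Nfe2l2 with the barcode term (0.39) and the clock score (0.61), and for Hmox1, which moved to -0.45 with the clock score, without the filter (-1.19) and with only the 2 groups (-1.19). Leaving out 1 mouse gave 0.79 to 1.10 for Nqo1, 0.55 to 0.73 for Nfe2l2, -0.0251 to 0.30 for Gclc, 0.0476 to 0.19 for Gclm, -0.11 to 0.0557 for Txnrd1, -0.13 to 0.0314 for Srxn1, -0.0663 to 0.13 for Keap1, 0.0308 to 0.26 for G6pdx and -1.33 to -1.06 for Hmox1. The estimates near 0 turned in sign, never past the threshold, for Gclm with the barcode term (-0.00306), for Txnrd1 (0.43) and Srxn1 (0.35) with the clock score, and without single mice for Gclc (1 mouse), Txnrd1 (3 mice), Srxn1 (2 mice) and Keap1 (2 mice). Over the 8 alternatives G6pdx at 30 μg/kg ran from 0.15 to 0.62, Gclc from 0.0880 to 0.35, Gclm from -0.00306 to 0.29 and Keap1 from 0.0299 to 0.23, with none called. Nqo1 at 1 μg/kg ranged from -0.20 to 0.29 without 1 mouse, and Hmox1 between 3 and 30 μg/kg from -0.11 to 0.35. The cause was not tested.

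The count of members called at 3 μg/kg was 1 in place of 0 with only the 2 groups (Hmox1) and with the adjusted p alone (Nfe2l2). At 10 μg/kg it was 1 in place of 0 with DESeq2, without the filter and with the Hox score (Nqo1), with only the 2 groups (Hmox1) and with the adjusted p alone (Nfe2l2), and 0 to 1 without 1 mouse. At 30 μg/kg it was 3 in place of 2 without the filter and with only the 2 groups (Hmox1 added), 1 with limma and 0 with the barcode term or the clock score, and 0 to 2 without 1 mouse, with 0 without vehicle mouse 1 and 1 without 30 μg/kg mouse 2. The count of slopes called was 1 with limma, 0 with the barcode term, the clock score or only vehicle to 0.3 μg/kg, 1 in the second barcode set only, and 3 without any 1 of the 27 mice. Over vehicle to 0.3 μg/kg the slope of Nqo1 was -0.0536, and in the second set that of Hmox1 was 0.0613. Among the other NRF2 targets the count at 30 μg/kg went from 0 to 3. That of the other antioxidant enzymes went from 0 to 3, that of the regulators from 0 to 1 and that of the AhR battery from 3 to 6. Hmox1 had the fewest reads, 10 to 140 per mouse, and a coefficient of variation within groups of 46.8 percent. The count of all genes called at 30 μg/kg was 1016 in the fit reported, 218 with limma, 423 with the clock score, 662 with only the 2 groups, 1818 with the adjusted p alone, and 590, 664 and 616 without vehicle mouse 1, vehicle mouse 3 or 30 μg/kg mouse 3. That of slopes was 3865, 867 with limma, 11 with the barcode term and 39 with the clock score.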
